A study of Equus caballus with 13 samples.

Results

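The circadian clock genes described here are 10 genes of the feedback loop that keeps daily time in nearly every mammalian cell: PER1, PER2, PER3, CRY1, CRY2, CLOCK, NR1D1, NR1D2, DBP and BHLHE40. They were taken by name from both deposited tables of RNA kinetics, and all 10 were listed in each, among 11056 genes of the table on age and 11249 of the table on sex. The measurements come from cartilage chondrocytes of horses, labelled as wild type, in 3 groups: 5 samples from old females, 5 from young females and 3 from young males, with no ages in years. All groups had the same handling: isolated cells were cultured for 2 days and then received 4-thiouridine (4sU), a uridine analogue that marks newly made RNA, for 4 h. Each table gives 1 synthesis rate and 1 half-life per gene and group. No value per sample, read count or p-value accompanies them, so depth is unknown, differences are given by size alone, and how far animals of a group varied is not known.

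In the textbook loop, CLOCK pairs with BMAL1 (or NPAS2 with BMAL1) and activates genes that carry E-box elements in their control regions. Among these are the PER and CRY genes, whose proteins return to the nucleus and silence CLOCK and BMAL1, and the genes for the REV-ERB receptors (NR1D1 and NR1D2), which repress BMAL1 through ROR elements. A loop of this kind needs its repressor transcripts to disappear soon after they are made, and chondrocytes are among the cell types known to run such a clock. Time of day, feeding or serum change before the harvest, and the phase of the cultures are not given in the sources used here.

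The identity of the cells was checked by marker genes. All 9 chondrocyte markers sought, among them COL2A1, ACAN and SOX9, were listed in both tables, as were 4 of 4 fibroblast markers, while 0 of 4 leukocyte and 0 of 2 synovial lining markers were listed. Of 3 endothelial markers, 1 (VWF) was listed in both tables, and of 2 muscle markers DES was listed in both and MYH11 in the sex table. Implied levels of the chondrocyte markers (the synthesis rate multiplied by the half-life, over ln 2) had a median log2 ratio of −0.48 in old and 1.48 in male cells against young female cells. Fibroblast markers had medians of −1.47 and 2.39. The summed level of the 9 chondrocyte markers was 1799264 in young female and 1635239 in old cells, and 1717834 and 4257232 in young female and male cells of the other table. Their part in the clock gene results was not tested. In such bulk samples fewer cells of a type and less RNA per cell cannot be told apart. The 13 samples carry 12 batch labels, of which batch 10 is shared by a young female and a young male sample and each other label belongs to 1 sample. The tables hold no value per batch, so batch and group cannot be told apart in them.

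Clock gene RNAs were short-lived in every group. Of the 10, 9 had a half-life below the median of all genes in young female, old female and young male cells alike, and 7 lay below the lower quartile. The median over the 10 genes was 1.44 h in young female cells of the age table, where the median of all genes was 3.64 h. In old cells it was 1.38 h against 3.43 h. In male cells it was 1.49 h against 4.63 h for all genes. Put as turnover at a constant RNA level, a half-life of 1.44 h means that 85.4% of the transcripts present at the end of the 4 h labelling had been made during it, whereas at the all-gene median of 3.64 h the share is 53.3%.

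**Figure D1:**
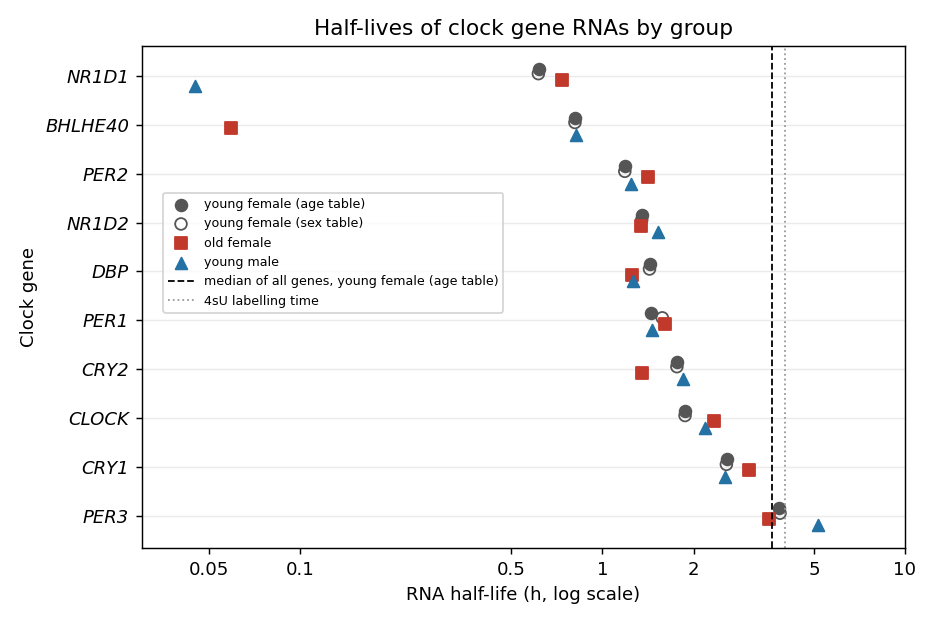
RNA half-life (h, log scale) of the 10 clock genes, ordered by the young female value, with 1 marker per group and table; the dashed line is the young female median of all genes and the dotted line the labelling time. The markers of a gene lie close together except for NR1D1 in male cells (0.0451 h) and BHLHE40 in old cells (0.0593 h), and PER3 is the only gene at or beyond the dashed line in young female cells.

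NR1D1 and BHLHE40 gave the shortest values. NR1D1, which encodes REV-ERB alpha, had a half-life of 0.617 h in young female cells of the age table and 0.735 h in old cells, at the 1.23 and 2.89 percentile of all genes. BHLHE40 (DEC1), a basic helix-loop-helix repressor that competes for E-boxes, had 0.813 h in young female cells and 0.818 h in male cells. NR1D2, the REV-ERB beta gene, decayed more slowly, at 1.35 h in young female, 1.34 h in old and 1.53 h in male cells. Its half-life was thus 2.19 times that of its paralogue NR1D1 in young female cells, 1.83 times in old and 33.8 times in male cells, the last with the outlying NR1D1 value of 0.0451 h.

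The PER family split by half-life. PER1 and PER2, the period repressors, had half-lives in young female cells of 1.45 and 1.19 h in the age table and of 1.58 and 1.19 h in the sex table. PER3, whose loss is known to affect the clock less, had 3.84 h in young female, 3.55 h in old and 5.16 h in male cells. It was 2.64 times as long-lived as PER1 in young female cells, 2.20 times in old and 3.53 times in male cells. PER3 lay near the middle of all genes in each group, at the 51.8 percentile in young female, 51.3 in old and 53.2 in male cells.

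The cryptochromes, partners of the PER proteins in repression, differed from each other. CRY1 had a half-life of 2.57 h in young female, 3.06 h in old and 2.53 h in male cells, and CRY2 had 1.77, 1.35 and 1.84 h. CRY1 therefore outlasted CRY2 by 1.46 times in young female and 1.37 times in male cells, but by 2.26 times in old cells, where CRY1 was longer-lived and CRY2 shorter-lived than in young cells. The activator CLOCK had 1.87 h in young female, 2.34 h in old and 2.18 h in male cells. DBP, a PAR-bZIP transcription factor that carries clock time to output genes, had 1.43, 1.25 and 1.26 h.

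The order of the half-lives was largely kept between groups. In all 3 groups NR1D1 and BHLHE40 were the shortest, and CLOCK, CRY1 and PER3, in this order, were the longest. The middle genes PER2, NR1D2, DBP, PER1 and CRY2 exchanged places. Because the young female libraries entered both tables, each gene also had a second estimate from the same libraries. For 9 of the genes the log2 difference in half-life between these estimates lay between −0.01 and 0.01. PER1 differed by 0.12. Its neighbour in the order was DBP, with 1.45 h for PER1 and 1.43 h for DBP in the age table. In the sex table the values were 1.58 and 1.43 h. The order of the 10 genes was the same in both estimates. Whether the places of the middle genes differ between groups was not tested. Implied levels of all 10 were lower in the sex table by the constant offset of all genes (median log2 difference −0.07). This repeat holds none of the variation between animals.

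The comparison of old with young female cells asked how age bears on RNA synthesis and decay. By a threshold of 1 on the absolute log2 ratio, a 2-fold difference, 1 of the 10 clock genes was past it for half-life (3.53% of all genes), 1 for synthesis rate (7.52%) and 0 for implied level (4.12%), and both calls were those of BHLHE40. Implied levels of 8 of the 10 were higher in old cells, and their median log2 ratio was 0.19, where that of all genes was 0.00 and 50.7% of genes were higher. These differences were small: they ranged from −0.33 for CRY2 to 0.45 for PER3. At a lower threshold of 0.5 on the log2 ratio, 1 clock gene was past it for half-life (13.4% of all genes), 2 for synthesis rate (23%) and 0 for implied level (15.6%).

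Half-lives of 5 clock genes were longer in old cells, against 36.5% of all genes. CLOCK (log2 ratio 0.32), NR1D1 (0.25), CRY1 (0.25), PER2 (0.25) and PER1 (0.15) were the 5, and each lay between the 80.9 and 91.3 percentile of the ratios of all genes. For PER1 the ratio was 0.03 with young female cells taken from the sex table. CRY2 had the shorter half-life in old cells by 1.30 times (log2 ratio −0.38), and its implied level was 1.25-fold lower at a nearly equal synthesis rate of 815 in young and 847 in old cells. NR1D1 combined its longer half-life with a synthesis rate of 5069 in old against 6867 in young cells (log2 ratio −0.44), and its implied level was 1.14-fold lower.

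Higher implied levels came with higher synthesis in several genes. PER3 had a synthesis rate of 465 in old against 314 in young female cells (log2 ratio 0.57) and a 1.37-fold higher implied level. DBP had 1118 against 795 (0.49) and a 1.23-fold higher level. NR1D2 had 5142 against 3929 (0.39) at an equal half-life, and a 1.30-fold higher level. The implied level of CRY1 was 1.33-fold higher, with contributions of 0.25 from half-life and 0.16 from synthesis rate. PER1, PER2 and CLOCK differed in implied level by log2 ratios of 0.05, 0.15 and 0.15. In 9 of the 10 genes the ratios of half-life and synthesis rate had opposite signs, as in 70.8% of all genes. In CRY1 both were above 0. For NR1D2 the half-life ratio was close to 0 (−0.006). With young female cells taken from the sex table both PER1 ratios were above 0 (0.03 and 0.09). In male against young female cells the signs were opposite in 8 of the 10, and in 77.0% of all genes.

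**Figure D2:**
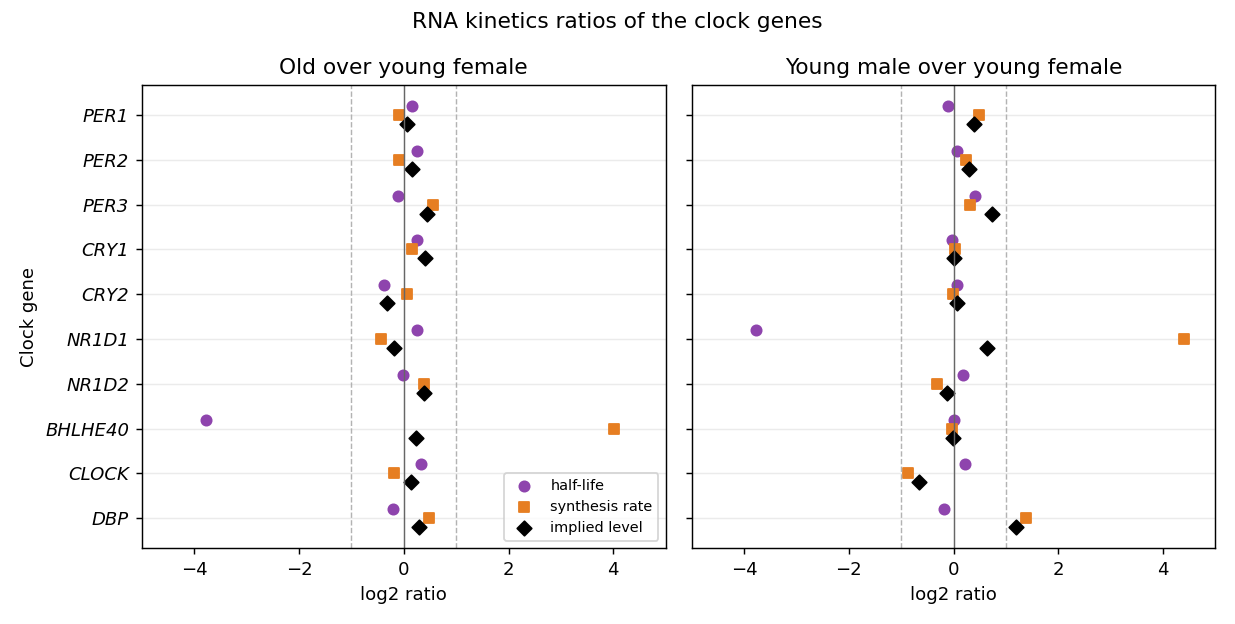
Log2 ratios of half-life, synthesis rate and implied level for each clock gene, old over young female (left) and young male over young female (right); dashed lines mark the threshold of 1. BHLHE40 in old cells and NR1D1 in male cells have half-life and synthesis ratios beyond −3.7 and 4 of opposite sign, and DBP in male cells is the only gene with an implied level past the threshold.

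BHLHE40 gave the outlying value of the age comparison. Its half-life was 0.0593 h in old cells against 0.813 h in young female cells, 13.7 times shorter, and its synthesis rate was 206727 against 12875, 16.1 times higher. That synthesis rate ranked 1 among the old cell values of all 11056 genes. The implied level nevertheless differed by only 1.17-fold (log2 ratio 0.23), and the young male half-life, 0.818 h, was close to the young female one.

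The comparison of young male with young female cells asked how sex bears on the same parameters. Past the threshold were 1 of 10 clock genes for half-life (7.58% of all genes), 2 for synthesis rate (12.2%) and 1 for implied level (4.61%). NR1D1 accounted for the half-life call and, with DBP, for the synthesis calls; the level call was that of DBP. Past 0.5 were 1 for half-life (31.8% of all genes), 3 for synthesis rate (41.1%) and 4 for implied level (25%). In this table the median log2 ratio of all genes was 0.27 for half-life and −0.28 for synthesis rate. The medians of the clock genes were 0.04 for half-life and 0.13 for synthesis rate, which is −0.24 and 0.41 relative to all genes. As listed, 6 of the 10 half-lives were longer in male cells (77.3% of all genes) and 6 synthesis rates were higher (28.9%). After centring on the median of all genes, 9 of the 10 had shorter half-lives in male cells, PER3 being the exception. By the same centring 8 had higher synthesis rates in male cells, the exceptions being CLOCK and NR1D2. When centred instead within deciles of half-life, 7 of the 10 had shorter half-lives with a median of −0.011, close to 0, and 9 had higher synthesis rates with a median of 0.51.

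DBP showed the largest difference in implied level. Its synthesis rate was 1982 in male against 761 in young female cells, 2.60 times higher (log2 ratio 1.38), while its half-life was 1.26 against 1.43 h. The implied level was 2.29-fold higher (log2 ratio 1.20), at the 97.9 percentile of all genes. The log2 ratio stayed between 1.13 and 1.50 under every scaling tried. In old cells DBP was 1.23-fold higher than in young female cells.

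The period genes were higher in male cells as well, each below the threshold. PER3 had an implied level 1.67-fold higher, at the 94.4 percentile, and for this gene both parameters contributed (log2 ratios 0.42 for half-life and 0.32 for synthesis rate). PER1 was 1.30-fold higher, with a synthesis rate of 597 against 425, and PER2 was 1.23-fold higher, with 931 against 791. For PER1 the log2 synthesis ratio was 0.49, and 0.31 with young female cells taken from the age table. Its log2 level ratio was 0.38 and 0.32 in the same 2 settings. The log2 ratios of implied level were 0.01 for the cryptochrome CRY1 and 0.07 for CRY2. They became −0.06 and −0.00 with young female cells taken from the age table, and 0.08 and 0.37 within half-life deciles. Decile centring also gave 0.61 for PER1, 0.61 for PER2 and 0.72 for PER3.

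CLOCK went the other way. Its synthesis rate was 306 in male against 559 in young female cells, 1.83 times lower (log2 ratio −0.87), and its half-life was 2.18 against 1.88 h. The implied level was 1.58-fold lower (log2 ratio −0.66), at the 6.57 percentile, and −0.48 after centring within half-life deciles. NR1D2 (−0.13) and BHLHE40 (−0.01) were close to equal, and both turned positive, to 0.18 and 0.34, when centred within half-life deciles.

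NR1D1 gave the outlying value of the sex comparison. Its half-life was 0.0451 h in male cells against 0.614 h in young female cells, 13.6 times shorter, and its synthesis rate was 139417 against 6580, 21.2 times higher and the 4th highest of all genes in male cells. The implied level was 1.56-fold higher (log2 ratio 0.64), and the ratio was 0.99 within half-life deciles, just under the threshold.

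Both outlying half-lives fall where nearly all RNA is new at the end of the labelling. With a half-life of 0.614 h, 98.9% of the RNA would be new after 4 h, and with 0.0451 h the share is 100%, so 1.09 percentage points of unlabelled RNA separate estimates that differ 13.6 times. For BHLHE40 the corresponding shares were 96.7% in young female and 100% in old cells. Such values were common among short-lived genes. Of 471 genes with a male half-life of 0.5 to 1 h, a group that does not enter the age ratio, 17.8% were past the half-life threshold in the age comparison and 10.4% were under 0.1 h in old cells. Of 758 genes with an old half-life of 0.5 to 1 h, 17.0% were past it in the sex comparison and 9.37% were under 0.1 h in male cells. Half-lives under 0.1 h in old cells only were listed for 113 genes, all 113 with a synthesis rate past the threshold upward, and 107 of these had an implied level within the threshold. In male cells the numbers were 115, 115 and 109. The median level log2 ratio was −0.04 over the 113 genes, where BHLHE40 had 0.23, and −0.40 over the 115 genes, where NR1D1 had 0.64. The share of labelled reads behind either gene is not in the tables, and whether its decay differed was not tested.

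**Figure D3:**
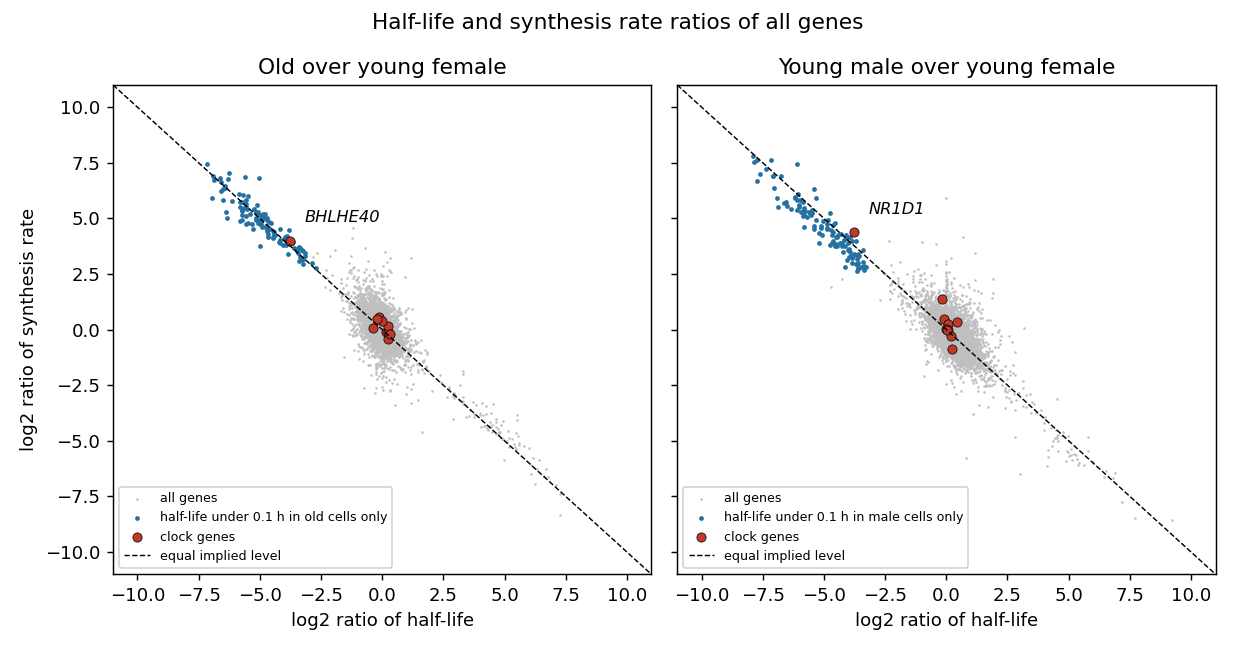
Log2 ratio of synthesis rate against log2 ratio of half-life for every gene of the age table (left) and the sex table (right); blue points are genes under 0.1 h in old or male cells only, red points are the 10 clock genes, and the dashed line marks an equal implied level. BHLHE40 (left) lies among the blue points near the dashed line, NR1D1 (right) lies above the line while the blue points lie mostly on or below it, and the other 9 clock genes of each panel lie apart from those points.

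Set beside each other, the comparisons share the young female cells and are given side by side only. The implied level log2 ratios in old and male cells were 0.45 and 0.74 for PER3, 0.29 and 1.20 for DBP, −0.18 and 0.64 for NR1D1, 0.38 and −0.13 for NR1D2, and 0.15 and −0.66 for CLOCK. The difference between these ratios was not tested.

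Of 46 further genes of the clock pathway, 42 were in the age table and 43 in the sex table. Past the threshold in the age table were 1 for half-life (downward; all genes 1.47% upward and 2.06% downward), 2 for synthesis rate (both upward; 4.59% and 2.92%) and 1 for implied level (upward; 2.13% and 1.99%). In the sex table they were 2 for half-life (1 upward, 1 downward; 5.62% and 1.96%), 2 for synthesis rate (1 upward, 1 downward; 3.78% and 8.37%) and 1 for implied level (upward; 3.00% and 1.61%). The synthesis rate count by sex was 5 with young female cells taken from the age table and 1 within half-life deciles. The median log2 level ratio of the list was 0.08 in old and −0.18 in male cells. Within half-life deciles the value for male cells was 0.0076.

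USP2, a deubiquitinase of clock proteins, had a half-life of 0.0126 h in old against 0.696 h in young female cells. Its log2 ratios were 4.90 for synthesis rate and −0.89 for implied level. The old cell value was under 0.1 h, like that of BHLHE40, and 98.1% of USP2 RNA would be new in young female cells. FBXW7, a substrate receptor of ubiquitin ligases, had 0.260 h in male against 1.23 h in young female cells. Its log2 ratios were 1.66 for synthesis rate and −0.58 for implied level. At the short half-lives of USP2 and FBXW7 nearly all RNA would be new after 4 h, and whether their decay differed was not tested. TIMELESS, a replication fork protein linked to the clock, had 11.4 h in male against 3.66 h in young female cells and a log2 level ratio of 1.43. Its partner TIPIN had a log2 synthesis ratio of −1.38 in male cells, which was −0.98 within half-life deciles.

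BMAL1, NPAS2 and RORA were below the threshold throughout. BMAL1, the obligatory partner of CLOCK, had a half-life of 1.91 h in young female, 2.09 h in old and 1.85 h in male cells. Its log2 level ratios were −0.26 in old and −0.29 in male cells. NPAS2, which can replace CLOCK, had 3.16, 2.64 and 3.47 h, with log2 level ratios of 0.05 and −0.18. RORA, a receptor that activates genes through ROR elements, had 1.33, 1.36 and 1.65 h, with log2 level ratios of 0.09 and −0.18. BMAL2 was in the sex table only, at 45.0 h in young female and 50.3 h in male cells. Median half-lives by role in young female cells of the age table were 1.67 h for 7 repressors and PAR-bZIP factors, 1.78 h for 10 ubiquitin ligase components and deubiquitinases, 1.99 h for 9 kinases and 3.32 h for 12 cofactors.

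Grouped by the element that is known to drive them, a grouping made after the values had been seen, clock genes differed in direction in male cells. Of 13 genes with E-box control (the PER, CRY and REV-ERB genes, DBP, TEF, HLF, BHLHE40, BHLHE41 and CIART), 10 had a higher implied level in male cells, with a median log2 ratio of 0.30, where 50.5% of all genes were higher. The count was 8 with young female cells taken from the age table and 13 within half-life deciles. CRY1 is also known to carry ROR elements. Of 4 genes with ROR-element control (BMAL1, CLOCK, NPAS2 and NFIL3, the last a repressor of the sites that DBP binds), 4 had a lower level, from −0.66 for CLOCK to −0.18 for NPAS2, and 4 were lower under each scaling. Their median was −0.46 as listed and −0.20 within half-life deciles. Of the 43 further pathway genes in the sex table, BMAL1, NPAS2 and NFIL3 among them, 27 had a lower level in male cells. The median log2 ratio of those 43 genes was −0.18 as listed and 0.0076 within half-life deciles. The ratio of NFIL3 was −0.63 as listed and −0.28 within deciles, and that of DBP was 1.20 and 1.50. In old cells 11 of the 13 and 3 of the 4 were higher, with medians of 0.23 and 0.10, where 50.7% of all genes were higher. With 1 value per group, these counts carry no test, and harvest times that would place the groups on the daily cycle are not given in the sources used here.

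**Figure D4:**
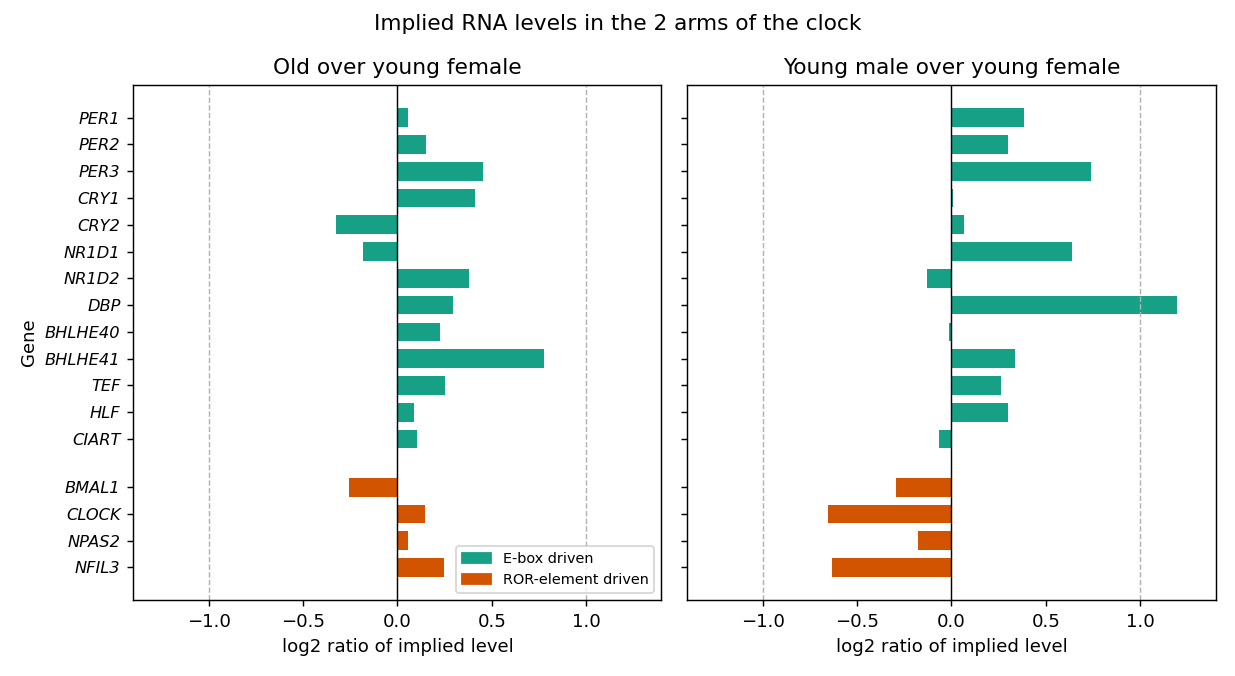
Log2 ratio of implied level for 13 E-box driven and 4 ROR-element driven clock genes, old over young female (left) and young male over young female (right); dashed lines mark the threshold of 1. In male cells the ROR-element driven genes are all below 0 and DBP is the highest bar, whereas in old cells both sets lie mostly above 0.

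The genes most like each clock gene were sought among 10275 named genes of both tables, by the Euclidean distance over 5 log2 values (young female half-life and the half-life and synthesis ratios by age and sex). None of the 10 had another clock gene as its nearest. With only 10 clock genes among the 10275, this count says little about how alike they are. PER3 was closest to PDE5A (distance 0.14), CRY1 to USF1 (0.15), NR1D2 to ATMIN (0.13), CLOCK to CCDC174 (0.17), CRY2 to SF3A1 (0.17), PER1 to EFS (0.19) and PER2 to AP5B1 (0.22). DBP stood further from any gene, with FZD9 nearest at 0.49. BHLHE40 was nearest to TGIF1 (0.27), which had half-lives of 0.887 h in young female and 0.0720 h in old cells. NR1D1 was nearest to BICRA (0.90), with 1.02 h in young female and 0.0746 h in male cells. Within the clock genes the closest pair was PER1 and PER2, at 0.43.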

How the data were processed

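Per the submitters' processing notes, reads were handled with cutadapt 4.5 and STAR 2.5.3 on EquCab3.0. Per the labels' protocols, RNA was alkylated with iodoacetamide for 15 min and strand-specific poly(A)-selected libraries were made. The kinetic model, gene annotation, filter, scaling between groups and way of combining replicates are not given in the sources used here. The deposited tables hold 1 synthesis rate (arbitrary units) and 1 half-life per gene and group, and 0 columns per sample. No unit is given for half-lives, and they were read as hours, the unit of the labelling time. They stop at 69.3, which on this reading is a decay rate of 0.01 per h. The ceiling alone does not settle the unit. The column headed Young was read as young female from the labels.

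Log2 ratios were computed within a table, with no pseudocount or filter (Python 3.11.15, pandas 2.3.3). The implied level and the labelled share assume constant RNA levels during labelling, which rhythmic genes need not meet. Differences of scale between groups shift levels. Calculations were tested on simulated data. Members and lists were chosen with earlier results of these data known. Named genes were all members, pathway genes past the threshold, and the activators and nuclear receptors of the pathway list; 1 gene named by this rule is counted in the list but not reported here. RefSeq gene names (TB-T2T assembly) matched all 10 members, and 0 of them overlapped another annotated gene there; no coordinates or sequences were used here. Alternatives were a threshold of 0.5, half-lives of 1 to 24 h, centring on all genes or within 10 deciles of the half-life of the third group, young female cells taken from the other table, and genes in both tables.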

Additional observations from a re-analysis of the deposited data

How the results depend on the processing

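No paired analysis was possible because the tables hold group values only; leaving out a replicate could not be done either, and promoter motif counts were not run. A count was taken as changed beyond 1.5 times, a median beyond 0.1 log2 units. Restricting to half-lives of 1 to 24 h removed BHLHE40 and NR1D1 and left 0 clock genes past the threshold for half-life in either comparison, 0 for synthesis rate by age and 1 by sex. At a threshold of 0.5, 2 clock genes passed for synthesis rate by age (23% of all genes) and 4 for implied level by sex (25%). Clock gene medians became 0.19 for half-life by age within half-life deciles, −0.24 for half-life and 0.41 for synthesis rate by sex after centring on all genes, and 0.51 for synthesis rate and 0.49 for implied level by sex within deciles. For the pathway genes, a threshold of 0.5 gave 2, 9 and 4 for half-life, synthesis rate and level by age (all genes 13.4%, 23% and 15.6%) and 8, 15 and 7 by sex (31.8%, 41.1% and 25%). The 1 to 24 h range gave 0 for half-life and 1 for synthesis rate by age, and 1 for each by sex. Their synthesis rate count by sex was 5 with young female cells taken from the age table and 1 within deciles. Their medians by sex were −0.033 for half-life and −0.064 for synthesis rate after centring, and 0.037, −0.019 and 0.0076 for half-life, synthesis rate and level within deciles. Single clock genes were followed only with young female cells of the other table and under both kinds of centring. Of these 180 alternative values, 24 changed sign, all with sizes up to 0.39, and 0 changed side of the threshold of 1. The lower threshold and the 1 to 24 h range are not among the 180. The causes were not tested. The settings for the pathway genes were chosen after seeing the data.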
